A study of Mus musculus with 24 samples.

Results

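The comparison set the 4 mouse melanoma lines that lack MITF against the 4 that have it, whatever the state of the related factors TFEB and TFE3. The members are 12 of the 24 libraries of the series, 3 from each of the MITF KO line, the double knockouts MITF/TFE3 DKO and MITF/TFEB DKO, and the TKO line, where KO is a knockout and TKO the triple knockout of Mitf, Tfeb and Tfe3. The other 12 libraries come from the parental, TFE3 KO, TFEB KO and TFEB/TFE3 DKO lines. All 8 lines are B16F10-luc2, a pigmented mouse melanoma line that carries luciferase, and all were grown in standard medium. Tfe3 and Tfeb were knocked out with CRISPR-Cas9, followed by cloning of single cells, in parental cells and, separately, in MITF KO cells that had been made earlier, so the 4 lines without MITF descend from the same MITF KO cells, which carry a frameshift in Mitf. How the MITF KO cells were made and whether they are 1 clone are not given in the sources used here. Loss of MITF and descent from those cells therefore cannot be told apart, and this holds for every difference below. The MITF KO cells also kept a faint, faster band on the immunoblot of the study. RNA was sequenced from the 3′ ends of polyadenylated transcripts, and levels are given as CPM, read counts scaled to the size of the library and normalised by the authors. The 3 libraries of a line were averaged on the log2(CPM + 1) scale. The 4 line means a side were the units of the comparison, because the libraries of a line share its knockouts. The 4 lines without MITF also share the Mitf knockout of the earlier cells, so p-values over lines do not rest on 4 separate knockouts of Mitf.

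MITF, TFEB and TFE3 belong to one family of basic helix-loop-helix leucine zipper factors that bind E-box sequences as homodimers or as heterodimers with each other. MITF is the master regulator of the melanocyte lineage, where it activates pigmentation genes and promotes proliferation, and melanoma cells low in MITF are known for invasive and undifferentiated states. TFEB and TFE3 are known for activating lysosome and autophagy genes, and their entry into the nucleus is held back by mTORC1 when nutrients are plentiful.

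Libraries held between 18300902 and 26667877 reads on 12010 genes, and replicate libraries of a line differed by more than sampling noise. Line means of Mitf itself were 687 to 876 CPM in the lines with MITF and 335 to 1397 CPM in those without, with a difference of -0.05 ± 0.40 (SE) on the log2 scale (limma adjusted p = 0.94), so that the transcript does not check the label of these lines. Tfeb was at 2.88 to 5.12 CPM in the lines that lack TFEB against 8.80 to 18.3 CPM in the others, and Tfe3 at 8.63 to 19.8 CPM against 35.7 to 56.4 CPM. All 7 melanocyte markers were in the table, with summed levels of 26134 to 31633 CPM in libraries with MITF and 15826 to 40321 CPM without. Of the markers of other cell types, 2 of 7 were present for fibroblasts, 2 of 10 for immune cells, 2 of 5 for endothelial cells and 1 of 5 for keratinocytes. In sum the immune markers reached at most 2.03 CPM with MITF and 3.44 CPM without, and the fibroblast markers lay at 9.73 to 23.9 CPM and 14.4 to 45.3 CPM, with Col1a1 called higher. The endothelial markers Pecam1 and Vwf were both called lower and summed to 2.57 to 38.2 CPM with MITF and 0.0729 to 2.31 CPM without, and the keratinocyte marker Krt14 was at 0 in all libraries with MITF and at up to 19.3 CPM without. Their part in the results was not tested. In bulk RNA, fewer cells with a transcript and less of it per cell cannot be told apart.

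Without MITF, 399 of 12010 genes (3.32%) were upregulated and 231 (1.92%) downregulated at a fold of at least 2 and an adjusted p under 0.05 in limma on the line means. A stricter count took those called genes for which every line without MITF stood at least 2-fold, on the log2(CPM + 1) scale, from every line with MITF, so that the weakest of the 16 pairings of lines still passed. It held 72 genes that rose (0.6%) and 58 that fell (0.483%), which are the genes changed alike in all 4 lines. The log2 difference between the sides ran from 1.58 to 4.90 among the 72, with a median of 2.35, which as a ratio of mean CPM corresponded to a median of 12.1-fold. Among the 58, the median was -2.43, or -2.59 with 6 nearly silent genes set at their detection bound, and the median ratio was 9.12-fold lower (9.63-fold with those bounds). The line means of the sides did not overlap for many more genes, namely 1659 (13.8%) that were higher without MITF and 1480 (12.3%) that were lower. An exact two-sided permutation test over the 8 lines gives p = 0.0286 for each such gene, the smallest it can give. It treats the lines as independent, although those without MITF share their origin. The gap between the nearest lines was just over the limit of 1 for P2rx5 (1.01), Sgms2 (1.03), Kazn (-1.01) and C1ql3 (-1.04), and just under it for Akap3 (0.997), Palld (0.989), Cited1 (-0.995) and Specc1 (-0.994). Each of the 130 genes was also called by edgeR on reads summed per line, and with any 1 line or library left out. Leaving out a line cannot narrow the gap by which these genes were chosen, so those fits are no separate check. With 5 instead of 1 added before taking logs, 101 of the 130 kept the call. Counts per direction depended on single lines: the upregulated genes numbered 267 to 572 and the downregulated 161 to 316 when a line was left out. The highest counts came without the MITF KO line (572 and 316) and the lowest without the TFEB KO line (267 and 161).

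**Figure D1:**
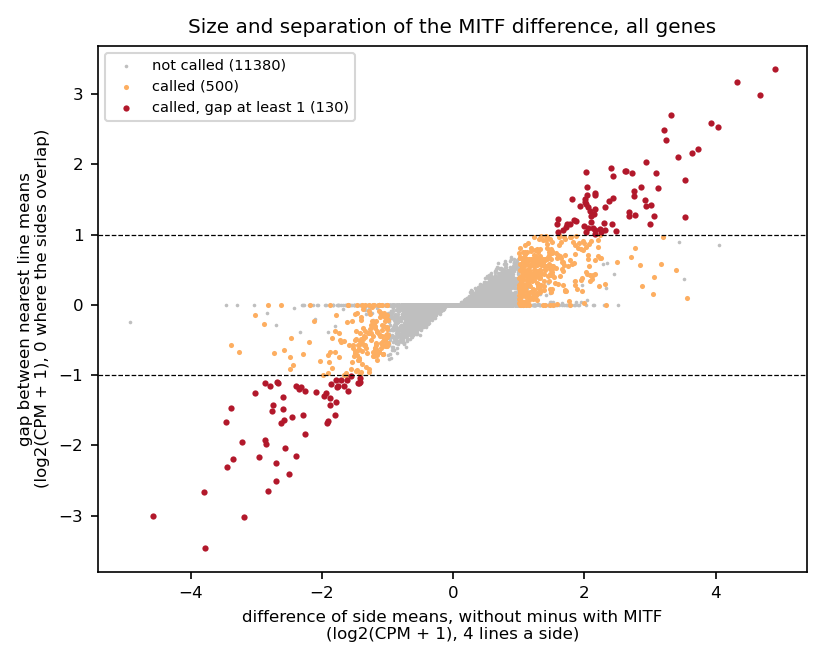
Each point is 1 of the 12010 genes, with the log2 difference between the 4 lines without and the 4 lines with MITF on the x axis and the signed log2 gap between the nearest line means of the sides on the y axis (0 where the sides overlap). The 130 genes changed alike lie beyond a gap of 1 on either side, and the other 500 called genes lie closer to or at a gap of 0.

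Several genes with the widest separation of the lines encode proteins known from muscle. The grouping by role, here and for the genes that follow, was made after the values had been seen, and no group was tested. Jph2, which ties the plasma membrane to the sarcoplasmic reticulum, was at 0.0953, 1.04 and 1.69 CPM (lowest, median and highest of 12 libraries) with MITF and at 12.2, 19 and 22.8 CPM without. Jph2 thus rose by 3.33 ± 0.20 (log2 difference ± SE, 4 lines a side, limma adjusted p = 3.1e-05), and no library of one side reached the other. Casq2, the calcium store protein of the cardiac sarcoplasmic reticulum, went from 0.426, 1.3 and 2.16 CPM to 13.0, 38.9 and 78.2 CPM, a rise of 3.92 ± 0.46 (adjusted p = 0.0016). Myom1, a component of the sarcomere M-band, had 0.191, 0.849 and 1.64 CPM with MITF and 6.73, 28.9 and 41.3 CPM without. The small heat shock protein gene Hspb7, found chiefly in heart and skeletal muscle, had 0.0933, 0.826 and 1.74 CPM against 8.90, 20.9 and 30.2 CPM. Asb2, which encodes the substrate receptor of a ubiquitin ligase that acts on filamins, had 2.43, 3.96 and 7.35 CPM against 27.1, 43.6 and 66.6 CPM. The differences were 3.73 ± 0.38 for Myom1, 3.43 ± 0.31 for Hspb7 and 3.21 ± 0.22 for Asb2, with adjusted p of 0.00086, 0.00045 and 0.0001. In the lines without MITF, Casq2 and Myom1 were lowest in the MITF KO and MITF/TFE3 DKO (21.2 and 13.6 CPM for Casq2, 20.6 and 10.5 CPM for Myom1) and highest in the MITF/TFEB DKO and TKO (62.3 and 66.4 CPM, 36.9 and 39.0 CPM). Dysf, of muscle membrane repair, was also among the 72, as was the small heat shock protein gene Hspb6.

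Others are known from neurons and from myelinating glia. Neuronal genes also changed alike in the other direction, among them Nova1, Nfasc, C1ql3 and Gpm6a, which are described below. Dbh, the enzyme that converts dopamine to noradrenaline, had the widest gap of the 72: its libraries lay at 0, 0 and 0.677 CPM with MITF and at 10.5, 32.5 and 131 CPM without. Its line means without MITF were 11.2 CPM (MITF KO), 12.8 CPM (MITF/TFE3 DKO), 125 CPM (MITF/TFEB DKO) and 52.1 CPM (TKO), and the difference was 4.90 ± 0.66 (adjusted p = 0.0029). Lhfpl4, which helps to place GABA receptors at inhibitory synapses, was far more even among the lines, with line means of 25.6, 20.6, 29.3 and 29.6 CPM in the same order against at most 1.38 CPM in any line with MITF (difference 4.32 ± 0.28, adjusted p = 6e-05). Mbp, myelin basic protein, was plentiful: its libraries ran from 5.37 through a median of 70.5 to 138 CPM with MITF and from 762 through 1241 to 1717 CPM without. Its difference was 4.67 ± 0.76 (adjusted p = 0.0055), and the large SE went with the TFE3 KO line, which had 6.40 CPM where the other lines with MITF had 69.2 to 106 CPM. S100b, a calcium-binding protein of glia and melanocytes, rose from 253 to 444 CPM in the lines with MITF to 1322 to 2014 CPM in those without. The myelin genes Mal and Tspan2, the perineuronal proteoglycan gene Bcan and the axon survival enzyme gene Nmnat2 belonged to the 72 too. For Bcan the order of the lines was the other way round, since the MITF KO had 59.2 CPM and the MITF/TFE3 DKO 44.6 CPM, while the MITF/TFEB DKO had only 12.7 CPM and the TKO 9.93 CPM.

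The remaining genes with the widest separation encode signalling, transport and matrix proteins. Prkg2, a cyclic GMP-dependent protein kinase, had 16, 26.5 and 45.7 CPM with MITF and 218, 501 and 975 CPM without (difference 4.03 ± 0.47, adjusted p = 0.0016), and Npr2, a receptor that makes cyclic GMP, rose from 22.1 to 37.4 CPM across lines to 99.6 to 184 CPM. Vdr, the vitamin D receptor, was at 0.607, 1.11 and 2.03 CPM against 9.84, 17.1 and 33.7 CPM (difference 3.24 ± 0.29, adjusted p = 0.00045). Abca8a, an ABC transporter gene, was at 0, 0.145 and 0.919 CPM against 4.62, 13.8 and 48.8 CPM (3.65 ± 0.53, adjusted p = 0.0039), with 47.9 CPM in the MITF/TFEB DKO and 4.94 to 16.1 CPM in the other lines without MITF. Hapln1, which links hyaluronan to proteoglycans, was at 0, 0 and 0.532 CPM against 3.76, 7.20 and 15.1 CPM (2.94 ± 0.33, adjusted p = 0.0013). Some genes of matrix proteins were higher, such as Prelp (line means of 0.947 to 2.88 CPM with MITF and 12.4 to 55.7 CPM without), Col9a1 (0.735 to 2.69 and 10.6 to 37.4 CPM) and Chadl (0.616 to 1.23 and 5.82 to 23.0 CPM). Others were among the 58 that fell, such as Fbln1, described with its promoter, and Npnt, which encodes nephronectin and was at 10.1, 17.0 and 22.7 CPM with MITF and at 0.0951, 2.38 and 4.19 CPM without. The receptor gene Notch1 was at 0 to 0.0967 CPM in the lines with MITF and at 2.94 to 6.23 CPM in those without. In 22 of the 72, every line with MITF stayed under 1 CPM. Genes changed alike that are named without being among the 12 with the widest gap in their direction were picked after their values had been seen.

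**Figure D2:**
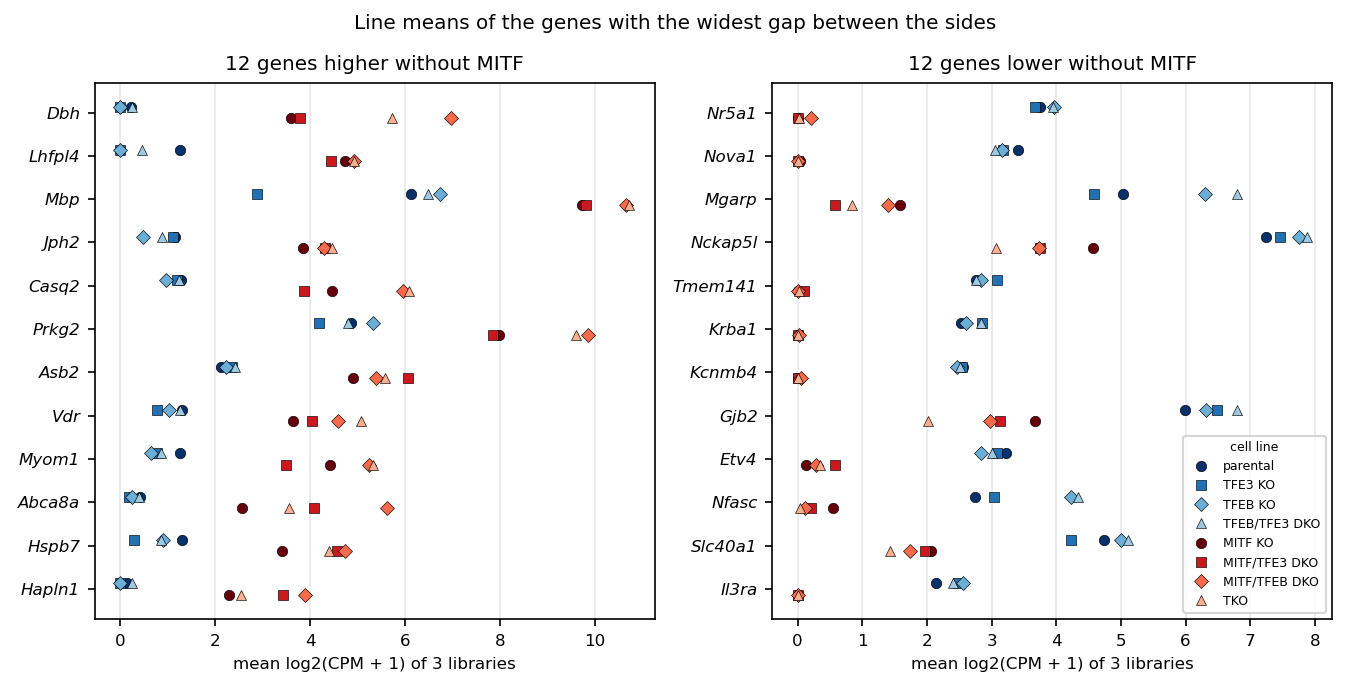
Line means of log2(CPM + 1) over 3 libraries are plotted for the 12 upregulated and the 12 downregulated genes with the widest gap between the nearest lines, with the lines that have MITF and those that lack it in separate colours. For each gene the 4 lines of one side lie apart from the 4 of the other, at 11.2 to 125 CPM for Dbh without MITF and at 12.1 to 14.8 CPM for Nr5a1 with it.

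Downregulated genes included several that left almost no reads. Nr5a1, the steroidogenic factor 1 gene that directs adrenal and gonadal development, had the widest gap of all: 9.01, 13.6 and 17.1 CPM with MITF and 0, 0 and 0.294 CPM without. Its difference was -3.78 ± 0.14 (adjusted p = 4.1e-06), and the 4 lines with MITF lay between 12.1 and 14.8 CPM. Tmem141, a membrane protein gene, went from 4.30, 6.56 and 8.05 CPM to 0, 0 and 0.249 CPM (-2.83 ± 0.14, adjusted p = 1.5e-05). For 6 of the 58 genes no library without MITF held more than 3 reads, the floor used here, which is worth 0.109 to 0.163 CPM. Nova1, a neuronal regulator of alternative splicing, had 2181 reads over the 12 libraries with MITF and 2 over the 12 without, at least 63.6-fold lower when every library without MITF is set at the floor. Krba1, a gene of unsettled role, had 1448 reads against 1 (at least 42.4-fold lower). Kcnmb4, the beta 4 subunit of the BK potassium channel, had 1243 against 3 (at least 36.3-fold lower), and Il3ra, the alpha subunit of the interleukin 3 receptor, 1131 against 0 (at least 33.3-fold lower). Crlf2, the receptor subunit for thymic stromal lymphopoietin, had 668 against 3 (at least 19.7-fold lower), and C1ql3, a secreted protein of synapses, 479 against 0 (at least 14.0-fold lower). No gene among the 72 was as low as this in all libraries with MITF. Cpa6 and Notch1 passed this floor only in the second TFEB/TFE3 DKO library (6 reads each), with at most 1 read in any other library with MITF. The same library held 33 reads of Lhfpl4 and 20 of Krt81, where the other libraries of its line had 0. The cause was not tested. Kcnmb4 and Il3ra were no longer called when 5 was added before taking logs, with differences of -0.96 and -0.90.

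Etv4, an ETS factor of receptor tyrosine kinase signalling, was at 4.25, 6.81 and 12.8 CPM with MITF and at 0, 0.237 and 0.612 CPM without (-2.70 ± 0.15, adjusted p = 3.1e-05), and the related Etv1 fell from line means of 12.2 to 14.9 CPM to 1.08 to 3.62 CPM. Gjb2, a gap junction connexin, was at 56.5, 80.9 and 129 CPM against 2.41, 7.03 and 12.7 CPM (-3.45 ± 0.32, adjusted p = 0.00054). Nckap5l, whose protein associates with microtubules, was at 143, 177 and 278 CPM against 6.32, 12.2 and 26.4 CPM (-3.80 ± 0.29, adjusted p = 0.00015). Mgarp, which takes part in mitochondrial transport, was at 17.8, 51.1 and 118 CPM against 0.236, 0.866 and 2.37 CPM (-4.58 ± 0.47, adjusted p = 0.00091). Nfasc, the axonal adhesion protein neurofascin, was at 5.14, 12.6 and 22.7 CPM against 0, 0.134 and 0.545 CPM (-3.36 ± 0.36, adjusted p = 0.0011). In Mgarp and Nfasc the lines with MITF themselves spread widely, from 23.4 to 111 CPM and from 5.71 to 19.5 CPM, the highest being the TFEB/TFE3 DKO. Slc40a1, the iron exporter ferroportin, fell from 16.8, 28.6 and 36.9 CPM to 1.55, 2.58 and 3.95 CPM (-2.97 ± 0.22, adjusted p = 0.00014). Others of iron handling fell too, Hfe, a regulator of hepcidin, from line means of 8.07 to 10.1 CPM to 0.937 to 2.64 CPM, and Trf, transferrin, from 44.6 to 55.5 CPM to 14.6 to 20.2 CPM. Met, the hepatocyte growth factor receptor, fell from 190, 284 and 509 CPM to 22.5, 37.1 and 79.4 CPM. Ngfr, the nerve growth factor receptor p75, fell from 9.91 to 15.6 CPM across lines with MITF to 0.369 to 3.96 CPM without, the highest of the latter being the MITF KO.

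Mcm10 fell by much the same amount in each line, and Prkaa1 fell somewhat more where TFEB was lost. Mcm10, needed to start DNA replication, had line means of 73.9 to 91.5 CPM with MITF and of 20.6 to 24.4 CPM without, a difference of -1.80 ± 0.11 (adjusted p = 3.1e-05). Prkaa1, the alpha 1 catalytic subunit of AMP-activated kinase, had 76.3 to 86.8 CPM against 18.7 to 23.1 CPM, a difference of -1.93 ± 0.11 (adjusted p = 3e-05). The glutathione transferase genes Gsta2 and Gsta4 belong to one family of close copies, and Hoxa11 and Hoxa11os overlap on opposite strands, so that their separate values are uncertain. The zinc finger genes Zfp985 and Zfp979, which rose, and Zfp937, which fell, belong to a family of close copies and are uncertain in the same way.

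**Figure D3:**
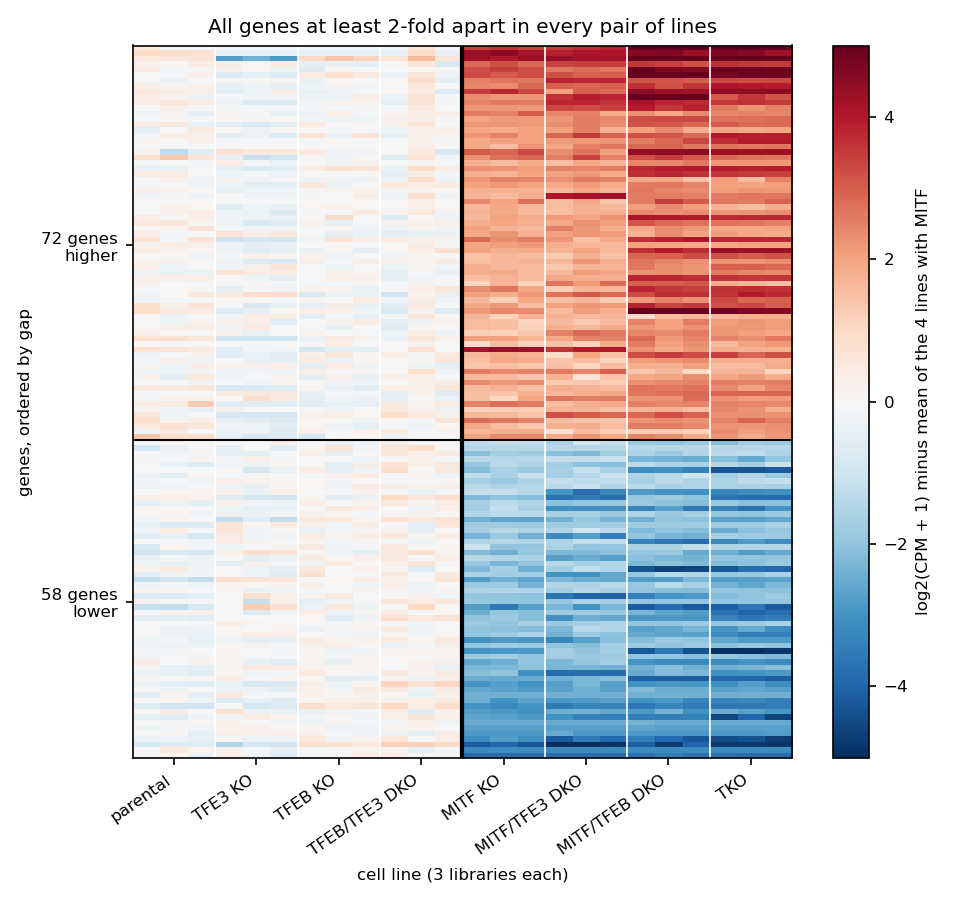
Rows are the 130 genes changed alike and columns the 24 libraries, with colour giving log2(CPM + 1) minus the mean of the lines with MITF. The 12 libraries without MITF are raised in the upper 72 rows and lowered in the lower 58 rows, with wider variation of colour between the 4 lines that lack MITF than between the 4 that have it.

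The promoters of the genes changed alike were searched for the E-box motifs of the family, because MITF binds such sequences. The windows that hold an extended form are shown, together with that of Met, which holds a short form and belongs to a gene described above. CACGTG and CATGTG and their extended forms TCACGTGA and TCATGTGA were sought on both strands within 250 bases before the gene start in RefSeq sequence of GRCm38.p6, an earlier build than the mm39 of the files. Each extended motif contains the shorter one. RefSeq promoters matched 9647 of the 12010 genes, 59 of the 72 upregulated and 47 of the 58 downregulated. CACGTG was in 9 upregulated promoters (15.3%) and 3 downregulated ones (6.38%), against 10.1% of all promoters. TCACGTGA was in 3 (5.08%) and 1 (2.13%), against 1.87%. CATGTG was in 4 (6.78%) and 3 (6.38%), against 8.74%, and TCATGTGA in 0 and 2 (4.26%), against 0.777%. These counts are small and describe the letters only. Capitals mark the motif, 5′ to 3′ on the strand of the gene, with up to 40 bases on either side, and for Hoxa11 the motif is read on the opposite strand. The upregulated genes are the first 3 and the downregulated genes the last 4.
Abca8a, chr11:110096027-110096114, minus strand: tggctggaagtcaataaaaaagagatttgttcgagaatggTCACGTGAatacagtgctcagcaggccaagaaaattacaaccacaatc
Asb2, chr12:103356002-103356065, minus strand: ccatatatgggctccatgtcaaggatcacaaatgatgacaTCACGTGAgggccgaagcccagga
Rap1gap, chr4:137664664-137664725, plus strand: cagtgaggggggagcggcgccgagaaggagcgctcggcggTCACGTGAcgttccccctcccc
Clcn5, chrX:7188715-7188792, minus strand: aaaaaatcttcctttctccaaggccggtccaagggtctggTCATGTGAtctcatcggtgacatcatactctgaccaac
Fbln1, chr15:85205827-85205914, plus strand: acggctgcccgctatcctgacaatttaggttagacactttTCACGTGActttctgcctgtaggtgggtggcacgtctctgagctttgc
Hoxa11, chr6:52245825-52245912, minus strand: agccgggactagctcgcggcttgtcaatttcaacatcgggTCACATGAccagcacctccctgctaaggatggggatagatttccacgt
Met, chr6:17463791-17463876, plus strand: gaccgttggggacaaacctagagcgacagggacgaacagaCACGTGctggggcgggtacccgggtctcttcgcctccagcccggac
Asb2, Abca8a and Met are described above with their levels. Rap1gap, a GTPase-activating protein for Rap, rose from 5.56 to 5.97 CPM across the lines with MITF to 21.4 to 36.9 CPM, and Clcn5, an endosomal chloride transporter, fell from 3.77 to 7.37 CPM to 0.541 to 1.27 CPM. Fbln1, the matrix protein fibulin 1, fell from 66.1 to 107 CPM to 20.6 to 30.0 CPM. Hoxa11, a homeobox factor of limb and uterus, was at 13.3 to 18.6 CPM with MITF and at 0.0131 to 2.67 CPM without.

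Although their direction was shared, the sizes of the changes often were not. The effect of MITF loss was therefore estimated within each background in a fit over all 24 libraries, where each contrast compares 2 lines and the SE covers only the spread between libraries of a line. With TFEB and TFE3 present, 395 genes were called higher and 356 lower. With TFE3 lost the counts were 646 and 315, with TFEB lost 1117 and 642, and with both lost 1066 and 843. In all 4 backgrounds 125 genes (1.04%) were called higher and 78 (0.649%) lower, and all of the 72 and the 58 were among them. Being 2-fold apart in each background follows from how they were chosen. They were chosen from these same libraries, so their adjusted p in this fit is not separate support. Of the 399 genes upregulated over the lines, 125 were called in 4 backgrounds, 151 in 3, 118 in 2 and 5 in 1. Of the 231 downregulated genes, 78 were called in 4, 88 in 3, 64 in 2 and 1 in 1. For the 72 genes the median effect was 1.78 with both factors present, 2.28 with TFE3 lost, 2.82 with TFEB lost and 2.46 with both lost, and for the 58 it was -1.80, -2.20, -2.49 and -2.79. The MITF effect was the largest of the 4 in 34 of the 72 when TFEB was lost and in 34 of the 58 when both were lost. With both present it was the largest in 1 and 4 genes.

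**Figure D4:**
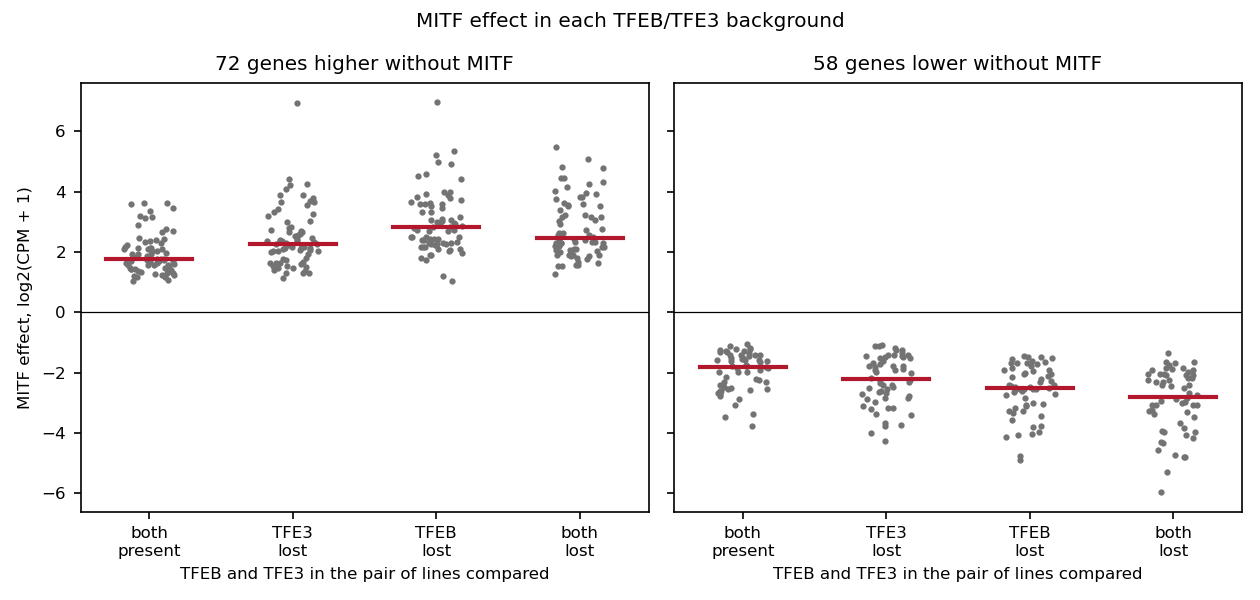
Points are the log2 MITF effects of the 72 upregulated and the 58 downregulated genes in each of the 4 TFEB/TFE3 backgrounds, and the red bar is their median. The medians move away from 0 from the background with both factors (1.78 and -1.80) to those without TFEB (2.82 and -2.49) or without both (2.46 and -2.79).

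Across all genes the MITF effects of the 4 backgrounds differed in 6827 (56.8%) by an F test in limma at an adjusted p under 0.05. The effect differed with TFEB status in 6095 genes (50.7%) and with TFE3 status in 1239 (10.3%), by at least 1 on the log2 scale in 1310 and 130 of them. Among the 72 upregulated genes, 62 had unequal effects (86.1%), and the effect was larger without TFEB in 46, smaller in 4. Among the 58 downregulated genes, 41 had unequal effects (70.7%), and the effect was larger in size without TFEB in 33 and smaller in 0. The corresponding counts for TFE3 were 10 larger and 2 smaller among the 72, 15 and 1 among the 58. The lines without MITF were also more unlike each other throughout the table, with a median SD of line means of 0.261 (log2 scale) against 0.145 on the other side, over genes of mean CPM of at least 5, and a larger SD in 78.8% of those genes. Hspb6 had the largest F of the 72, though not the widest spread of effects. It rose by 1.33 and 2.06 on the log2 scale in the backgrounds with TFEB and by 3.58 and 3.75 in those without (F test adjusted p = 5.5e-13). Gpm6a, a neuronal membrane glycoprotein gene, had the largest F of the 58. Its effects were -2.87 with both present, -1.76 with TFE3 lost, -3.97 with TFEB lost and -5.28 with both lost (F test adjusted p = 3.2e-11). At the other end, Trp53inp2, an autophagy regulator, had effects of 1.58, 1.51, 1.72 and 1.55 in the same order (adjusted p = 0.89), and Hrct1 had effects of 1.96, 2.15, 2.09 and 1.89 (adjusted p = 0.84). Nr5a1 and Mcm10 did not pass the F test either, at adjusted p of 0.74 and 0.33. Prkaa1 passed it at an adjusted p of 0.022, with effects of -1.73, -1.79, -2.05 and -2.16 in the same order.

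In 143 genes the effect of MITF loss was called in opposite directions in different backgrounds, which a mean over lines does not show. Slfn8, a Schlafen family gene, had effects of -3.63 with both factors present, 2.76 with TFE3 lost, 4.22 with TFEB lost and -0.89 with both lost, each with an SE of 0.21 (F test adjusted p = 9.4e-16). Phf11d, an interferon-inducible gene, had effects of -3.90, 2.13, 3.38 and -2.88 (SE 0.20, adjusted p = 2e-16). Over lines these gave differences of 0.62 ± 1.15 and -0.32 ± 1.27, and neither was called.

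Lists of genes were then examined by counts, beside the 3.32% and 1.92% of all genes that were called and the median difference of 0.01 over all genes, with each list counted over its members in the table. With no limit on the fold, 4334 of all 12010 genes had an unadjusted p under 0.05 in either direction. Pigment and melanosome genes, the textbook targets of MITF, had 0 of 27 members called higher (1 at an unadjusted p under 0.05, 0 by edgeR) and 3 called lower (7 at an unadjusted p under 0.05 and a fold of at least 2), with a median difference of -0.52 and none changed alike. Gpr143, a receptor of the melanosome, fell from 17.4 to 6.64 CPM on average over lines (-1.42 ± 0.33, adjusted p = 0.02), Mlana from 768 to 379 CPM (-1.17 ± 0.33, adjusted p = 0.04) and Lyst from 15.0 to 6.77 CPM (-1.12 ± 0.29, adjusted p = 0.028). The list summed to 34011 to 39451 CPM in the lines with MITF, while without MITF the sum went from 48561 CPM in the MITF KO through 36969 CPM (MITF/TFE3 DKO), then 22224 CPM (MITF/TFEB DKO), down to 19730 CPM for the TKO, so that the lines without MITF lay on both sides of those with it. The median effect of the members followed that order, at 0.10, -0.25, -0.87 and -1.27 in the 4 backgrounds. The number of lower calls in this list changed with the line left out. It was 0 without the parental, TFE3 KO, TFEB KO, MITF/TFEB DKO or TFEB/TFE3 DKO line and 1 without the TKO. Without the MITF KO it was 8, and without the MITF/TFE3 DKO 6. Of the 27 genes bound by MITF outside pigmentation that were in the table, 1 was called higher (Cdkn1a) and 6 lower (Met, Hk2, Scd1, Axin2, Nampt and Brca1), with a median of -0.49. Of these 27, only Met was changed alike in all lines. Lower calls numbered 2 without the TKO line and 3 without the parental, TFE3 KO, MITF/TFEB DKO or TFEB/TFE3 DKO line. Hk2, a hexokinase, fell by 1.5 ± 0.25 on the log2 scale (adjusted p = 0.0063), from a mean of 318 CPM with MITF to 115 CPM without.

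Neural crest and glial genes held the highest share of upregulated members among the 16 lists, 7 of 24, with 2 called lower and a median of 0.40. Those that rose were Mbp, S100b, Gfap, L1cam, Erbb3, Nes and Tfap2b, of which Mbp and S100b were changed alike. Gfap, an intermediate filament of glia, went from a mean of 3.0 to 18.7 CPM (2.1 ± 0.43, adjusted p = 0.013) and L1cam, an adhesion protein of axons, from 10.9 to 47.5 CPM (1.81 ± 0.40, adjusted p = 0.017). Those that fell were Met and Ngfr, both changed alike. The sum over the list was 2621 to 3132 CPM in the lines with MITF and 4400 to 6479 CPM in those without. Most of that rise was in Mbp and S100b: without them the other 22 members summed to 2235 to 2595 CPM with MITF, and to 2413 CPM (MITF KO), 2185 CPM (MITF/TFE3 DKO), 2850 CPM (MITF/TFEB DKO) and 3006 CPM (TKO) without. The median effect was 0.31 with both factors present, 0.06 with TFE3 lost, 0.56 with TFEB lost and 0.56 with both lost. Without the parental or the TKO line 4 members were called higher, and without the TFEB KO line 3. Mesenchymal and invasive genes had 3 of 45 called higher and 2 lower in limma, against 10 and 3 by edgeR, with a median of 0.48. The sums of the list lay at 10413 to 11446 CPM with MITF, below that range in the MITF KO (9062 CPM) and the MITF/TFE3 DKO (6942 CPM), and above it in the MITF/TFEB DKO (12431 CPM) and the TKO (13894 CPM). Itgb3, integrin beta 3, fell by 2.44 ± 0.41 (adjusted p = 0.0062) and Ngfr, also in this list, by 2.79 ± 0.38 (adjusted p = 0.0029). Cald1, an actin-binding protein, rose by 1.17 ± 0.36 (adjusted p = 0.048). Without the MITF KO or the MITF/TFE3 DKO line 7 members of this list were called higher, and without any other line 0.

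S phase genes leaned lower, with 0 of 59 called higher (1 at an unadjusted p under 0.05, 0 by edgeR), 4 called lower and a median of -0.46, and the lines did not overlap for 26 members that were lower and 1 that was higher, against 12.3% and 13.8% of all genes. Mcm10 led them. Nasp, a histone chaperone, fell from a mean of 395 to 173 CPM (-1.21 ± 0.17, adjusted p = 0.0032), Rrm2, a ribonucleotide reductase subunit, from 326 to 146 CPM (-1.19 ± 0.22, adjusted p = 0.0087) and Cdt1, a licensing factor, by 1.06 on the log2 scale. Of 53 G2/M genes 0 were called by limma and 0 by edgeR, while 16 were lower and 0 higher at an unadjusted p under 0.05, beside 4334 of all 12010 genes in either direction. The lines did not overlap for 13 members that were lower and 0 that were higher, and the median was -0.27. The TKO did not share the lower median of the G2/M genes: the median effect was -0.29, -0.52 and -0.38 in the first 3 backgrounds and 0.25 with both factors lost, and the sum of 12266 CPM in the TKO lay within the 11251 to 12539 CPM of the lines with MITF, against 8808 to 9938 CPM in the other lines without it. Cdc25b, which activates the mitotic kinase, and Kif20b, a mitotic kinesin, had differences of -0.87 ± 0.19 and -0.78 ± 0.20, under the fold limit. Among 21 G1 cyclins and CDK inhibitors 2 rose and 1 fell, with a median of 0.31. Cdkn1c, the inhibitor p57, rose by 2.06 ± 0.43 (adjusted p = 0.014), Cdkn1a, the inhibitor p21, rose by 1.06 ± 0.22 (adjusted p = 0.014), and Myc fell by 1.0 ± 0.17 (adjusted p = 0.0068). With MITF, Cdkn1a libraries lay at 768 to 822 CPM in the parental line and at 347 to 563 CPM in the other lines. Without MITF they lay at 949 to 1038 CPM (MITF KO), 822 to 969 CPM (TKO) and 1097 to 1425 CPM (the double knockouts). 

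Antioxidant and glutathione genes had 0 of 32 called higher (2 at an unadjusted p under 0.05, 0 by edgeR) and 4 lower, with a median of -0.35, and lay at 10599 to 11750 CPM in sum with MITF and at 6856 to 8650 CPM without. The members that fell were Gsta4, Gstm1, Me1 and Fth1. Fth1, the ferritin heavy chain that stores iron, went from 2216, 2582 and 3082 CPM over libraries with MITF to 444, 706 and 1570 CPM (-1.80 ± 0.35, adjusted p = 0.01). Me1, malic enzyme, fell from a mean of 117 to 44.9 CPM (-1.34 ± 0.22, adjusted p = 0.0054). Of 31 WNT and TGF-beta response genes, 3 rose and 4 fell, with a median of 0.08. The 3 were the ligands Tgfb1, Tgfb2 and Tgfb3, with Tgfb3 at a mean of 12.5 CPM with MITF and 52.5 CPM without (1.84 ± 0.35, adjusted p = 0.01) and Tgfb2 at 13.1 and 56.0 CPM (1.77 ± 0.49, adjusted p = 0.036). Tgfb2 libraries of the MITF/TFE3 DKO, at 15.4 to 17.8 CPM, lay within the 7.66 to 17.8 CPM of the lines with MITF, though above the TFE3 KO (7.66 to 10.8 CPM). The MITF KO had 32.2 to 34.8 CPM, and the MITF/TFEB DKO and TKO had 76.5 to 101 CPM. The 4 were Axin2, Smurf1 and the WNT effectors Tcf7 and Tcf7l1, with Tcf7l1 at 49.2 and 15.4 CPM (-1.63 ± 0.18, adjusted p = 0.0013).

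Of 55 lysosome and autophagy genes none was called in either direction, and the median was 0.15. Lamp1, a membrane protein of lysosomes, was at 419 CPM on average with MITF and 718 CPM without (0.77 ± 0.10, adjusted p = 0.0023), and Lipa, the lysosomal acid lipase, at 62.8 and 115 CPM (0.84 ± 0.17, adjusted p = 0.013), both under the fold limit. At an unadjusted p under 0.05, with no limit on the fold, 12 members were higher and 6 lower, beside 4334 of all 12010 genes in either direction, and edgeR called 0. Counts at an unadjusted p in the lists below are to be read beside the same share. Among 32 mTORC1 and Rag GTPase regulators Ddit4, an inhibitor of mTORC1, rose from a mean of 60.6 to 177 CPM (1.59 ± 0.31, adjusted p = 0.01), while its effect in the background without TFEB and TFE3 was 0.29. Of 35 sterol and fatty acid synthesis genes Hsd17b7, a cholesterol synthesis enzyme, rose by 1.41 ± 0.38 (adjusted p = 0.033) and Scd1, stearoyl-CoA desaturase, fell by 1.5 ± 0.35 (adjusted p = 0.022). Scd1 libraries of the MITF KO, at 20.6 to 23.6 CPM, lay close to those of the parental line, at 23.8 to 24.7 CPM. The other lines without MITF had 4.71 to 8.99 CPM, against 20.7 to 39.3 CPM over all lines with MITF. Of 23 glycolysis genes Pfkp, a phosphofructokinase, rose by 1.64 ± 0.28 (adjusted p = 0.006), while Hk2 fell and so did Slc16a3, a lactate exporter (-1.47 ± 0.43, adjusted p = 0.045). Of 54 respiratory chain subunits and 41 ATF4 and unfolded protein response genes none was called, and Sdhc (0.59 ± 0.30), Cox7c (0.54 ± 0.44), Slc7a11 (-1.42 ± 0.60) and Atf5 (0.89 ± 0.37) had the largest differences. At an unadjusted p under 0.05, 9 respiratory chain subunits were higher and 2 lower, and 4 ATF4 and unfolded protein response genes were higher and 4 lower. By edgeR 0 of either list were called.

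Interferon response genes showed how unlike the lines without MITF were. Of 54 members only Oasl1 was called, as lower (-2.83 ± 0.76, adjusted p = 0.033). The sides overlapped for Oasl1: its libraries in the MITF/TFE3 DKO, at 10.2 to 14.7 CPM, lay above the 6.08 to 9.89 CPM of the TFE3 KO. The other lines without MITF had 0 to 1.87 CPM. Of the 54 members, edgeR called 0. Over all 24 libraries, where the spread is that between libraries of a line, 29 were called lower. The list had a median difference of -1.29, yet the median effects were -4.32 with both factors present, 0.51 with TFE3 lost, 1.17 with TFEB lost and -2.25 with both lost. Summed levels were 15466 CPM (parental), 9876 CPM (TFE3 KO), 9050 CPM (TFEB KO), and for the TFEB/TFE3 DKO 11542 CPM, with MITF, and 1629 CPM (MITF KO), 13686 CPM (MITF/TFE3 DKO), 16852 CPM (MITF/TFEB DKO) and 2363 CPM (TKO) without. None of the 54 was among the genes changed alike.

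Several of the weaker calls in the lists were lost when a line was left out, which also leaves fewer lines to compare, or under other settings. Mlana (-1.21 to -0.88), Scd1 (-1.56 to -1.29), Hsd17b7 (1.12 to 1.44), Tgfb2 (1.43 to 1.88) and Cald1 (0.90 to 1.23) were no longer called when any 1 line other than the MITF KO or the MITF/TFE3 DKO was left out, where the brackets give the log2 differences in the fits that lost the call. Mlana also lost its call by edgeR and under quantile normalisation, and Cald1 without any 1 of 5 libraries and with no variance trend. The same held for Gpr143 (-1.48 to -1.34) without any of those lines but the TKO, and for Slc16a3 (-1.55 to -1.23) without any line but the MITF KO or the TFE3 KO, without the first MITF KO library, or with the TFEB/TFE3 background as a block. Lyst (-1.19 to -0.79) lost its call without any line other than the MITF KO or with a pseudocount of 5. Oasl1 (-3.12 to -2.38) lost its call without any line other than the MITF/TFE3 DKO, by edgeR, with that block and in an additive model of MITF, TFEB and TFE3 status. Cdkn1a (0.93 to 1.0) lost its call without the TFE3 KO, TFEB KO, MITF/TFE3 DKO or MITF/TFEB DKO line, and Myc (-1.0 to -0.54) without the parental, TFE3 KO, MITF/TFEB DKO or TKO line or any 1 of 9 libraries, or with a pseudocount of 5.

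**Figure D5:**
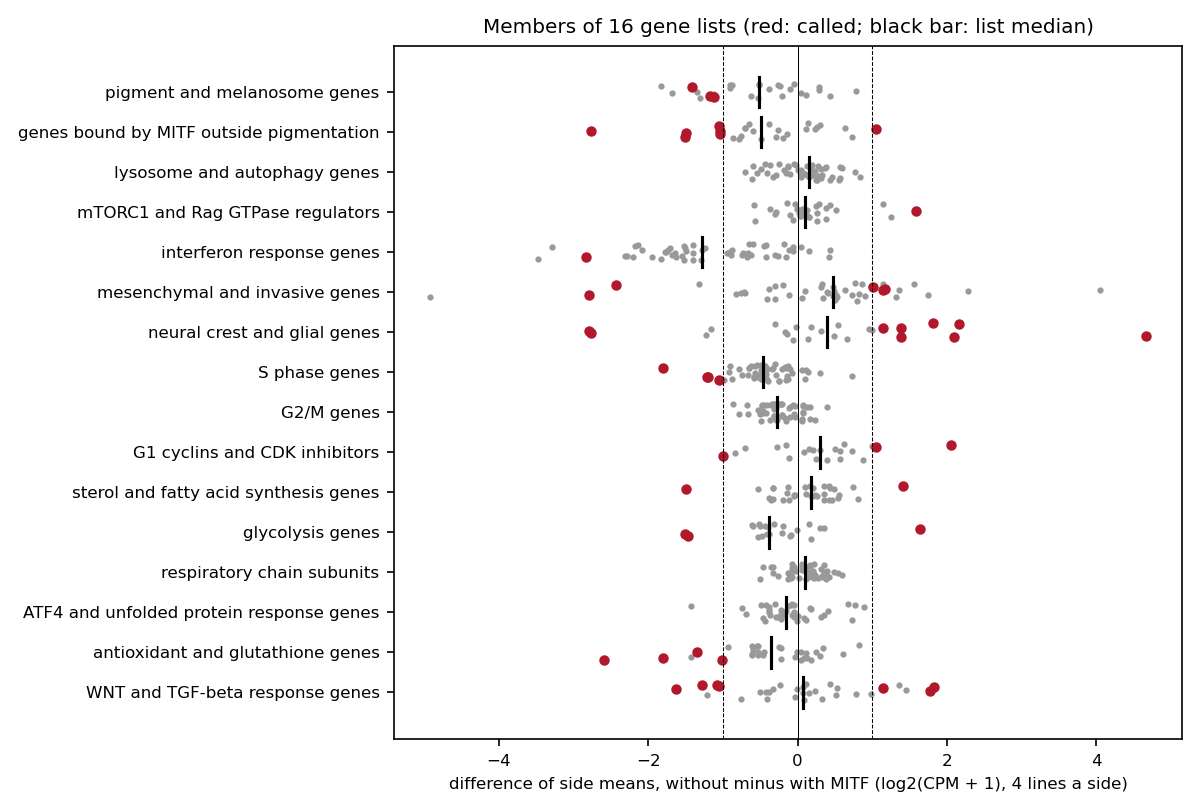
Each row is 1 of the 16 lists and each point a member's log2 difference between lines without and with MITF, in red where called, with a black bar at the list's median. Medians run from -1.29 for interferon response genes to 0.48 for mesenchymal and invasive genes, and called members are few in every list.

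Neighbouring genes on the chromosomes were compared last. Of 9316 genes with enough neighbours, 971 (10.4%) lay in a stretch where the median difference over 100 neighbours was at least 0.3 in size. The share was 12.1% (52 of 431) among called genes and 7.87% (7 of 89) among genes changed alike. Neighbour medians stayed between -0.52 and 0.50, smaller than the difference of any gene changed alike. A median over 100 genes cannot show a change of 1 gene alone, and only 89 of the 130 genes changed alike had enough neighbours. Among genes of mean CPM of at least 5, the median difference of whole chromosomes was lowest on 19 and 12 (-0.34 each) and highest on 1 and 10 (0.26 each). The cause was not tested.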

How the data were processed

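B16F10-luc2 cells of 8 lines gave 24 libraries, 3 per line, sequenced from the 3′ end. The authors trimmed reads with Trim Galore 0.6.5 and cutadapt 2.10, checked them with FastQC 0.11.9, mapped them to mm39 with STAR 2.7.8a and normalised gene counts with edgeR, per the labels and the study's methods. The counting tool, annotation, strand setting and filter on low counts are not given in the sources used here. The deposited values are a normalised signal, CPM divided by scaling factors, with column totals of 933263 to 1081081. Because the low values are whole multiples of 1 read, whole reads were recovered: at least 99.99% of the values of each library were whole within 0.1 reads. Totals were 18300902 to 26667877 reads a library, and a level of 3 reads was taken as the floor, which covers counting error only.

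Line means of log2(CPM + 1) were compared 4 against 4 with limma 3.58.1 (R 4.3.3) with a variance trend and Benjamini-Hochberg adjustment over 12010 genes. A gene was called at a fold of at least 2 and an adjusted p under 0.05. Fold changes on this scale understate the change of low genes. The p-values measure the spread between lines, or between libraries of a line where 24 libraries were fitted, and nothing in the labels says that the libraries of a line are separate cultures. Genes named by rule were the 3 targeted genes and the 12 genes in each direction with the widest gap among those changed alike (predicted genes left out). Up to 3 called members of each list with the largest difference were also named (with none called, the 2 largest). The last were the 2 genes changed alike with the largest F for unequal effects, and 2 with opposite calls. A repeat kept its place in each list. The genes and lists were chosen with earlier results of these data known. Alternatives were edgeR 4.0.16 on recovered reads, pseudocounts of 0.25 and 5, a mean of at least 5 CPM (9539 genes), median-of-ratios and quantile scaling, no variance trend, all 24 libraries with or without a replicate block, the TFEB/TFE3 background as a block, and each line or library left out. After seeing the data, an additive model and a count of genes outside shifted stretches were added. The steps were tested on simulated data. Replicate numbers did not consistently pair the libraries, though some same-numbered libraries went together. Same-numbered libraries of 2 lines had correlations of deviations from -0.53 to 0.57, above 0.1 in 7 of 12 pairs. Figures were drawn with matplotlib 3.10.9 in Python 3.11.15.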

Additional observations from a re-analysis of the deposited data

Results flagged for a closer look

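Among named genes, 11 had 1 line that stood apart from the other 3 of its side on Dixon's test, given as the gap to the nearest line over the range of the side. Chance marks about 1 in 20 sides, and 2 sides were tested for each of the named genes. With MITF, the TFE3 KO line stood apart for Mbp (0.844, 6.40 CPM against 69.2 to 106 CPM) and Tcf7l1 (0.833, 40.7 against 50.5 to 52.9 CPM), the TFEB KO line for Gpr143 (0.946, 15.1 against 18.1 to 18.3 CPM), the TFEB/TFE3 DKO line for Mlana (0.837, 700.9 against 785.9 to 798.6 CPM) and the parental line for Hsd17b7 (0.894, 10.2 against 12.5 to 12.9 CPM). Without MITF, the MITF KO line stood apart for Ngfr (0.831, 3.96 against 0.369 to 0.669 CPM) and Slc16a3 (0.829, 73.1 against 33.0 to 37.8 CPM). Nr5a1 (0.920), Krba1 (1.0) and Kcnmb4 (1.0) were marked for the MITF/TFEB DKO line and Nova1 (1.0) for the MITF KO line, at levels of at most 0.164 CPM, where the other lines without MITF were at or near 0.

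The effect of MITF loss differed with TFEB status in 6095 genes, with TFE3 status in 1239 and between the 4 backgrounds in 6827, by tests in limma on the spread between libraries. Each background is a pair of lines, so differences between lines and between TFEB or TFE3 states cannot be told apart. The F test of unequal effects gave adjusted p of 5.5e-13 for Hspb6, 3.2e-11 for Gpm6a, 9.4e-16 for Slfn8 and 2e-16 for Phf11d, whose effects are given above.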

How the results depend on the processing

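Each value here counts genes. In the comparison of lines, edgeR on reads summed per line gave 684 upregulated genes, and 182 and 101 changed alike. A pseudocount of 0.25 gave 128 upregulated genes changed alike. A pseudocount of 5 gave 181 and 130 called and 28 and 27 changed alike, and a mean of at least 5 CPM left 38 downregulated genes changed alike. Leaving out 1 line gave 77 to 124 upregulated and 59 to 85 downregulated genes changed alike, with 120 without the MITF KO and 124 without the MITF/TFE3 DKO, since fewer lines must be apart. Leaving out 1 line gave 267 to 572 and 161 to 316 called genes, and leaving out 1 library gave 384 to 412 and 217 to 240 called and 69 to 76 and 57 to 62 changed alike. In the backgrounds, edgeR gave 657 higher calls with both factors present, 1005 with TFE3 lost, and 233 and 118 genes called in all 4. A pseudocount of 0.25 gave 632 higher with both present and 215 higher in all 4. A pseudocount of 5 gave 158, 261, 599 and 588 higher and 206, 148, 372 and 496 lower, and 49 and 45 in all 4, in the order both present, TFE3 lost, TFEB lost and both lost. A mean of at least 5 CPM gave 254, 398 and 698 higher with both present, TFE3 lost and TFEB lost, and 204 lower with TFE3 lost. The cause of these shifts was not tested, apart from the smaller number of genes tested under a filter.

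The other settings kept each of these counts within 1.5 times. Counts of called members in the lists were less stable: 136 of 1440 moved by more, 73 of them with a line and 20 with a library left out, and 8 each at an unadjusted p and over all 24 libraries with or without the block. The latter gave 29 interferon response genes and 8 pigment genes called lower and 10 mesenchymal genes called higher. All 24 libraries gave 525 and 332 called genes, both with and without a replicate block, and the block gave 6132, 1289 and 6893 genes for the TFEB, TFE3 and overall tests of unequal effects. Adding the block to the fits over 24 libraries changed no call count by more than 1.5 times. With the additive model of MITF, TFEB and TFE3 status, chosen after seeing the data, MITF status was called in 429 and 234 genes, and TFEB status in 1 and 0 (105 and 36 at an unadjusted p under 0.05). Outside stretches of the genome with shifted neighbours, also chosen after seeing the data, 361 and 215 genes were called and 68 and 55 changed alike. Scaling moved the median of all genes by no more than 0.03. Of 2907 values of single genes under the alternatives, 2812 kept their call, 89 lost it, 6 gained it and 0 reversed. Low levels limit what could be seen, as 3 reads are worth 0.109 to 0.163 CPM.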
